A study of Mus musculus with 14 samples.

Results

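A set of 7331 distal accessible regions was called in every one of 14 ATAC-seq libraries from mouse embryonic stem (ES) cells driven towards primitive endoderm (PrE) by GATA6. ATAC-seq uses a transposase to cut open DNA and insert sequencing adapters, so that its peaks mark accessible chromatin. The peak lists of all libraries were merged by overlap of at least 1 bp into 121891 autosomal regions, of which 18395 were called in all 14 libraries. The 7331 regions described here are those of the 18395 whose midpoint lay more than 5 kb from every protein-coding transcription start site (TSS). They were therefore chosen on a measured value, the presence of a peak in each library, and a region that lost its peak at any time could not be among them. The other 11064 regions called in every library lay within 5 kb of a protein-coding TSS and are called promoter-proximal, and the 81259 distal regions missed in at least 1 library are called the other distal regions.

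The cells were of the KH2 line, labelled as strain C57BL/6, and carried the transgene TRE:GATA6-DSREd2, in which a doxycycline (Dox)-responsive promoter drives GATA6. All libraries, the 0 h libraries included, came from this one transgenic line, with 50000 cells each and 2 libraries per time point. At 0 h the cells were in 2i, a serum-free medium with a pair of kinase inhibitors and LIF, without Dox. Cells of the other 6 time points were in serum medium with LIF and received Dox at 1 µg/mL, for the whole time up to 8 h and for 12 h only in cells collected at 16, 24 and 48 h. Serum without Dox was not among the conditions, so that in comparisons with 0 h the change of medium and GATA6 cannot be told apart. The lists held 54301 to 63667 autosomal peaks per library, and the regions described here made up 12.0 to 14.5% of the regions called in a library. Nothing in the labels says whether the 2 libraries of a time point came from separate cultures, so p-values measure the spread between these libraries, which may be technical.

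Promoters of marker genes were checked within 1 kb of their TSS. Of 10 PrE genes, 7 to 8 had a call at 0, 2 and 4 h, 9 at 8 h, all 10 at 16 and 24 h and 9 to 10 at 48 h. Of 8 ES cell genes, 6 to 7 had a call at 0 h and 5 to 6 at 48 h. Promoters of trophectoderm genes were called for 3 to 4 of 4 and those of mesoderm genes for 1 to 2 of 3 in all libraries, so that an open promoter alone did not mark a cell type here.

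Regions far from promoters that are accessible in a mammalian cell are mostly enhancers, bound by sequence-specific transcription factors, or sites of CTCF, a zinc-finger protein that stops cohesin and so shapes chromatin loops. CTCF binding is shared by many cell types, whereas enhancers are largely used by particular ones. In the early embryo the octamer factor OCT4 and the nuclear receptors ESRRB and NR5A2 act at enhancers of naive pluripotency, GATA6 binds GATA sites at enhancers of the PrE, and AP-1 dimers of FOS and JUN proteins respond to serum and growth factor signals.

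Of the regions with a CTCF motif, 3 of those with the highest mean score percentiles are printed first, as they show high calls in every library with a sequence match. Each sequence is 100 bases of GRCm38 read on the strand of the match, lower case with the CTCF letters CCANNAGNNGGC in capitals.
chr7:141221897-141221996, minus strand, 5.2 kb from the Rassf7 TSS and 452 bp from the microRNA gene Mir210: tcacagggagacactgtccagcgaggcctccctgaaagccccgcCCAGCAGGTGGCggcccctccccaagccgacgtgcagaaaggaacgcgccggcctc
chr13:43864723-43864822, plus strand, in an exon of the long non-coding gene Gm33195, 79.9 kb from the Cd83 TSS: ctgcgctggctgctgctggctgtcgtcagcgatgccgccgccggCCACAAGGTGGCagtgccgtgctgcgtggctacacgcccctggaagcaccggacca
chr7:101310746-101310845, plus strand, between genes, 6.3 kb from the Stard10 TSS: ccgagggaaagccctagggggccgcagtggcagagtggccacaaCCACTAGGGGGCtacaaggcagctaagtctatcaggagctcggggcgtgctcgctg

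The next sequences come from regions whose rank rose or fell most between 0 and 48 h, with the first GATA match (AGATAA, the same with G as its last base, or either with T as its first) or octamer match (ATGCNAAT) in capitals. The first 4 are from regions that rose and each holds a GATA match.
chr2:20665631-20665730, plus strand, intron of Etl4: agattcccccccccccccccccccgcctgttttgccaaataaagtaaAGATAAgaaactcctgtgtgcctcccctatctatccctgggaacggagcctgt
chr17:49808008-49808107, plus strand, intron of Kif6: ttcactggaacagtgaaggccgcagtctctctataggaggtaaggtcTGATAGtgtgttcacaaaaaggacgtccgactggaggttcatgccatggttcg
chr6:113006990-113007089, minus strand, between genes, 39.1 kb from the Thumpd3 TSS: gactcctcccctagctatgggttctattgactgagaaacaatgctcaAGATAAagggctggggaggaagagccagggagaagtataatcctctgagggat
chr5:119588962-119589061, minus strand, in the antisense gene Tbx3os1, 81.6 kb from the Tbx3 TSS: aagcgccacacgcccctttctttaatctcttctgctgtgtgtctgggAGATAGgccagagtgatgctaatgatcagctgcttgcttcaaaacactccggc
The last ones are from regions that fell, one with an octamer match and one with a GATA match.
chr10:43742869-43742968, minus strand, exon of the long non-coding gene Gm40634, 158.8 kb from the Qrsl1 TSS, octamer: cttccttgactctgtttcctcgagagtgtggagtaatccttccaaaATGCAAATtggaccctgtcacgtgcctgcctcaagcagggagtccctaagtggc
chr11:60922975-60923074, minus strand, in the antisense gene Map2k3os, 8.9 kb from the Map2k3 TSS, GATA: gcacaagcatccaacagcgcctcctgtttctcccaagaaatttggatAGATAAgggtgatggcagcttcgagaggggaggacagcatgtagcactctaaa

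To place the regions in the genome, their midpoints were set against the annotation. Of the 7331 regions, 51.5% (3772) lay outside protein-coding genes, 38.2% (2800) in introns and 10.4% (759) in exons of genes of any type, with 190 in a UTR. Among the other distal regions 6.30% lay in exons. The median distance to the nearest protein-coding TSS was 23.0 kb, and 764 regions (10.4%) were more than 100 kb away, against 19.8% of the other distal regions. A further 961 regions (13.1%) lay within 1 kb of a TSS that was not that of a protein-coding transcript, against 6.02% of the other distal regions. By gene type of that TSS, 309 belonged to non-coding transcripts of protein-coding genes, 261 to lincRNA genes, 69 to antisense genes and 48 to snRNA genes. Neighbouring regions were 94.1 kb apart in the median, with 25% of the gaps under 30.1 kb and 25% over 277 kb, and the largest gap was 13.9 Mb. The promoter-proximal regions called in every library, which were more numerous (11064), had a median gap of 57.5 kb. By chromosome, density was highest on chromosome 11 at 4.68 regions per Mb and lowest on chromosome 14 at 1.98.

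Genes transcribed by RNA polymerase III, and those of the spliceosomal small nuclear RNAs, lay under some of these distal regions, a class looked at after the densest runs of regions had been seen. Transfer RNA (tRNA) genes of the RefSeq annotation of GRCm38 were overlapped by 88 of the regions (1.20%), which covered 109 of 391 autosomal tRNA genes. Only 79 of the other distal regions (0.0972%) overlapped one. Small nuclear RNA (snRNA) genes were overlapped by 34 of the regions (0.464%) and by 13 of the other distal regions (0.0160%). Put another way, 52.7% of the 167 distal regions over a tRNA gene and 72.3% of the 47 over an snRNA gene were called in every library, against 8.28% of all 88590 distal regions. Of the 88 regions over tRNA genes, 29 were on chromosome 13. These genes have near-identical copies elsewhere in the genome, and how far reads were shared between copies was not tested.

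Of the 3 tightest runs of at least 5 regions, from which that class had been noticed, 2 held snRNA genes and none held a tRNA gene. The densest was on chromosome 12 (54714200 to 54730265, nearest gene Eapp), with 5 regions in 16.1 kb, 3 of them over snRNA genes. The second was on chromosome 11 (101641214 to 101658062, near Arl4d and Rdm1), with 5 regions in 16.9 kb and 2 over snRNA genes. The third lay within Zmynd8 on chromosome 2 (165808129 to 165826275), which encodes a chromatin reader, with 5 regions in 18.2 kb and no small RNA gene. By nearest gene, Reep3 and Zmynd8 led with 10 regions each, followed by the proto-oncogene Myc and the Wnt effector Tcf7l2 with 9 each. The Myc regions lay 57.8 to 479 kb from its TSS. In all, 4744 of 20722 protein-coding genes were nearest to at least 1 region and 104 to 5 or more.

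Sequence composition set the regions between promoters and other distal regions. Median GC content in the central 200 bp was 53.0%, against 64.0% in promoter-proximal regions called in every library and 49.0% in the other distal regions. At least 10 CpG dinucleotides were found in 11.6% of them, against 73.6% and 2.16%. Repeats marked in the reference made up 10.0% of the sequence in the mean. The merged regions were 688 bp wide in the median, against 459 bp for the other distal regions.

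Motif letters were searched on both strands in the central 200 bp of each region, and a match is a description of letters, not of binding. The CTCF letters CCANNAGNNGGC were found in 639 regions (8.72%), against 3.08% of promoter-proximal regions called in every library, 4.84% of the other distal regions and 4.84% of all regions. A permuted version, ACCNNGCNNAGG, was found in 1.15%. The GATA letters went the other way, with 28.3% (2077 regions) against 41.1% of the other distal regions and 35.4% of all regions, while their permuted version (AAGTAA with the same changes of its first and last base) was found in 20.1% and 23.3%. The AP-1 letters TGANTCA were found in 7.78% (570 regions), against 13.7% of the other distal regions and 11.7% of all. The octamer ATGCNAAT was found in 4.01% (294 regions) and the ESRRB/NR5A2 letters CAAGGTCA in 2.10% (154 regions), against 4.29% and 2.39% of all regions. The KLF/SP letters GGGCGGG, common in CpG-rich promoters, were found in 9.26%, against 31.0% of the promoter-proximal set and 8.55% of all regions. The remaining factor letters were each found in 5.12% of the regions or fewer. In 3 groups of rising GC content (cut at 50.5 and 55.5%) the CTCF share was 6.45, 9.88 and 9.70% in the regions and 4.07, 5.92 and 5.82% in the other distal regions.

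Both motif shares differed between regions just inside and just outside the threshold of 14 libraries. The share with CTCF letters was 4.69% among distal regions called in 1 library, 6.01% at 12 libraries, 11.1% at 13 and 8.72% at 14. The share with GATA letters was 46.3% at 8 libraries, 42.9% at 12, 31.4% at 13 and 28.3% at 14. Just outside, 2437 distal regions were called in 13 libraries, and the missing library was a 48 h library for 520 and 373 of them and a 0 h library for 315 and 233. On the distance threshold, 297 regions called in every library lay 4 to 5 kb from a TSS and 347 lay 5 to 6 kb away, with CTCF letters in 10.1% and 12.1% and GATA letters in 20.9% and 26.5%.

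**Figure D1:**
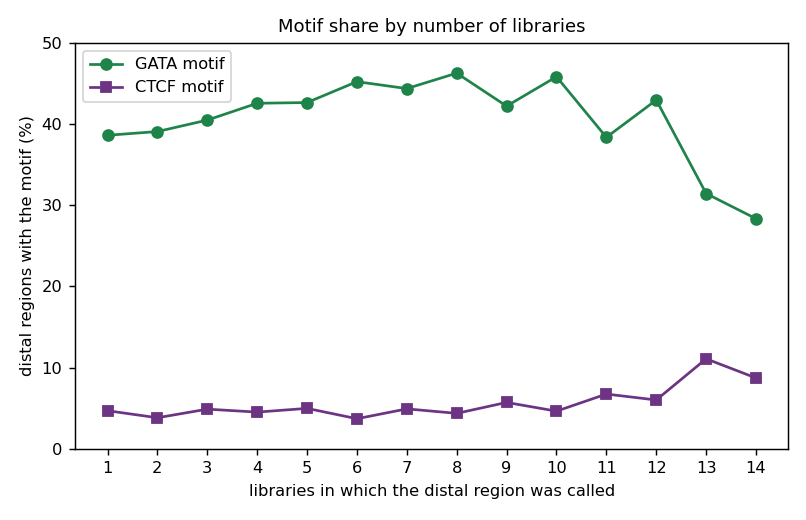
Share of distal regions (%, y axis) with GATA letters (circles) or CTCF letters (squares) in the central 200 bp, by the number of libraries in which the region was called (x axis). The GATA share was 46.3% at 8 libraries and 28.3% at 14, and the CTCF share was 8.72% at 14.

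CTCF matches in the 639 regions were on the plus strand in 320, the minus strand in 315 and both in 4. Of 246 neighbouring pairs of such regions within 1 Mb of each other, 67 (27.2%) pointed towards each other, 57 (23.2%) away from each other and 122 (49.6%) the same way. Over 1 Mb the shares were 24.0, 26.8 and 49.2% of 366 pairs. Convergent pairs are the kind found at the anchors of cohesin loops. No test was made of these shares.

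To follow the regions over time without comparing scores between lists, the highest peak score of a region was turned into its percentile among all regions called in that library, 0 being the lowest and 100 the highest. High percentiles follow in part from the selection on calls in every library and are given as a description. The median of the 7331 regions was 67.7 and 68.8 in the 0 h libraries, 68.4 and 70.5 at 2 h, 72.2 and 74.4 at 4 h, 73.2 and 72 at 8 h, 73.4 and 75.2 at 16 h, 70.2 and 70.9 at 24 h, and 62.6 and 63.4 at 48 h. Both 48 h libraries were below all 12 others. The promoter-proximal set moved otherwise, from 77.9 ± 1.73 (SD, n = 2) at 0 h to 83.0 ± 1.49 at 48 h, when the distal set was at 63.0 ± 0.527. The share of the distal regions in the top 10% of their library was 16.0 ± 0.656% at 0 h, 21.0 ± 1.15% at 4 h and 9.50 ± 0.145% at 48 h.

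The median percentile differed between the 7 time points (one-sided permutation test of F with 100000 shuffles, F = 24.3, p = 0.00108, adjusted p = 0.00130 over 6 relations). It did not follow time in a straight line. Pearson's r with hours was -0.606 (two-sided permutation p = 0.022, adjusted 0.0319) and Spearman's rho was -0.0532 (permutation p = 0.868, adjusted 0.868) over 14 libraries. It rested on the 2 libraries of 48 h, which lay farthest from the middle of the time scale: leaving them out gave r = 0.329 (permutation p = 0.292). In bulk libraries, fewer cells with an open region and less opening per cell cannot be told apart.

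**Figure D2:**
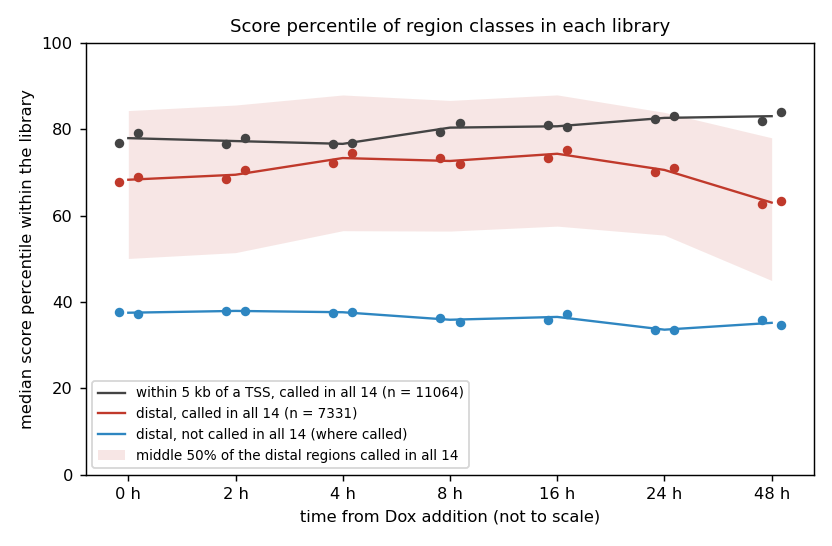
Median score percentile within the library (y axis, 0 to 100) by time from Dox addition (x axis, not to scale) for the 7331 distal regions called in all 14 libraries, the 11064 promoter-proximal regions called in all 14 and the other distal regions where called. Points are libraries, lines join the means of 2 libraries, and the band is the middle 50% of the 7331 regions, whose median was 63.0 at 48 h.

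The spread of single regions over the libraries was also described. A region's percentile spanned 39.9 points over the 14 libraries in the median, against 26.2 points for the promoter-proximal set. The 2 libraries of a time point differed by 4.95 points in the median, a value over 2 libraries that is not comparable with a range over 14. Only 301 regions (4.11%) stayed within 10 points over all libraries, and 2439 (33.3%) spanned more than 50 points. The 186 regions (2.54%) above the 90th percentile in every library compare with 1492 (13.5%) of the promoter-proximal set.

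Differences in percentile were tested with limma over all 18395 regions called in every library, with Benjamini-Hochberg adjustment at 0.05. Over the 7 time points 4695 of the 7331 distal regions (64.0%) changed, beside a background of 53.4% of all regions tested and 46.4% of the promoter-proximal set. At 2 h against 0 h, 894 rose (12.2%, background 7.02%) and 486 fell (6.63%, background 5.02%). The count that fell was 239 without 0 h replicate 1, 299 without 0 h replicate 2 and 298 without 2 h replicate 1. At 16 h against 0 h, 1430 rose (19.5%, background 13.5%) and 401 fell (5.47%, background 3.78%). Without 16 h replicate 2, 940 rose, and the count that fell was 225 and 200 without 0 h replicate 1 and 2 and 237 and 241 without 16 h replicate 1 and 2. At 48 h against 0 h the balance turned, with 1299 that rose (17.7%, background 20.1%) and 2288 that fell (31.2%, background 19.5%). Within serum medium, at 48 h against 2 h, 1073 rose (14.6%, background 20.4%) and 2336 fell (31.9%, background 19.3%). The share that rose at 48 h was thus below the background in both comparisons. The median difference at 48 h against 0 h was -3.21 points in the distal set, 3.25 in the promoter-proximal set and 1.60 over all regions tested. As percentiles within a library are relative, a rise of promoters in rank lowers other regions. When ranked only among the 18395 regions, 1272 rose and 2305 fell at 48 h against 0 h, but at 16 h against 0 h 1277 rose and 1010 fell, so that the balance at 16 h depended on the scale of the ranks. On that scale the median of the distal regions was 41.0 ± 1.59 (SD, n = 2) at 0 h, 42.9 ± 1.76 at 16 h and 32.1 ± 1.49 at 48 h. Of the 4695 regions that changed, 45.5% (2134) had their lowest mean percentile at 48 h and 21.8% (1023) at 0 h. The highest mean was at 16 h for 22.1% (1038) and at 0 h for 19.8% (931).

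The 3 regions with CTCF letters printed above, named for their high mean percentile, differed in how they moved. The region near Mir210 and Rassf7 was at 98.6 and 99.4 at 0 h, between 99.3 and 99.9 in the libraries of 2 to 24 h, and at 99.9 and 99.8 at 48 h. Its difference at 48 h against 0 h was 0.816 ± 0.464 points (SE; limma adjusted p = 0.179). The Gm33195 region was at 98.1 to 99.9 in all 14 libraries. The region near Stard10, a phospholipid transfer protein gene, fell from 98.5 and 98.9 to 88.1 and 91.8 (-8.78 ± 1.11 points, SE; limma adjusted p = 3.36e-05). Among these 3, the difference at 48 h against 0 h passed the test only near Stard10.

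The 2 highest regions without CTCF letters were copies of sequence found elsewhere in the genome, and both were at the top of the scale, within rounding, in all 14 libraries. The first (chr2:22589161-22590211, intron of Myo3a) matched the mitochondrial genome over 1052 bp at 98.4% identity. The second (chr9:123461759-123462219, an exon of Lars2 with UTR) had 11 other matches of at least 100 bp and 90% identity in the genome. In all, 12 of the 7331 regions (0.164%) were similar to mitochondrial DNA. Whether reads from those copies account for their scores was not tested.

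The 5 regions that rose most all rose early. They were chosen on their 0 h and 48 h values, so that low values at 0 h follow in part from the choice. The Etl4 intron region (chr2:20665401-20665959) was at 0.24 and 6.32 at 0 h, 56.1 and 50.8 at 2 h, 87.9 and 76.0 at 4 h, 84.3 and 92.7 at 8 h, 94.0 and 87.6 at 16 h, 91.0 and 93.0 at 24 h, and 94.9 and 93.6 at 48 h. It was thus among the lowest calls before induction and the higher ones from 4 h on. Its difference at 48 h against 0 h was 91.0 ± 5.65 points (SE; limma adjusted p = 5.14e-08). The region 39.1 kb from Thumpd3 (chr6:113006769-113007429) was at 6.73 and 17.4 at 0 h, 97.6 and 98.2 at 2 h, and 99.4 or more in all later libraries. It rose by 87.8 ± 2.86 points (SE; limma adjusted p = 2.86e-10). The region 5.8 kb from Mtmr7, a lipid phosphatase gene (chr8:40640235-40640935), went from 4.29 and 15.4 to 91.6 and 95.9 by 2 h and was at 97.7 and 98.1 at 48 h. It held none of the factor letters searched. In both of these regions the level at 48 h was within 4.14 points of that at 2 h (limma adjusted p = 0.334 and 0.609 for Mtmr7 and Thumpd3).

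The other two rose in steps. The Kif6 intron region (chr17:49807521-49808517) went from 1.54 and 1.10 at 0 h to 68.3 and 57.2 at 2 h, 94.7 and 92.0 at 4 h, 68.3 and 48.7 at 24 h and 91.5 and 91.0 at 48 h. The region 81.6 kb from Tbx3, which encodes a T-box factor of naive pluripotency and of the extraembryonic endoderm (chr5:119588754-119589323), went from 1.59 and 6.43 to 31.8 and 49.4 at 2 h, 82.3 and 85.1 at 4 h and a mean of 90.1 at 48 h. It lay in the antisense gene Tbx3os1 and held GATA and octamer letters. Its rise between 2 and 48 h was itself past the threshold (49.5 ± 5.91 points, SE; limma adjusted p = 2.31e-05). GATA letters were present in 4 of the 5 regions, beside 28.3% of all 7331 regions.

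The 5 regions that fell most had the larger part of their fall after 16 h. The region 8.9 kb from Map2k3, a MAP kinase kinase gene (chr11:60922817-60923423), was at 94.7 and 93.4 at 0 h, 96.4 and 96.2 at 2 h, 95.3 and 96.2 at 4 h, 98.0 and 94.5 at 8 h, 98.4 and 97.7 at 16 h, 74.0 and 82.1 at 24 h, and 4.64 and 3.91 at 48 h. All 10 libraries up to 16 h were thus at 93.4 or above. The difference at 48 h against 0 h was -89.8 ± 3.73 points (SE; limma adjusted p = 1.42e-09). The Pde1b intron region (chr15:103522377-103522997), in a phosphodiesterase gene, went from 99.3 in both 0 h libraries to 83.1 and 84.0 at 16 h, 64.4 and 70.5 at 24 h and 8.96 and 10.9 at 48 h. The region 330.4 kb from Dio3, an imprinted deiodinase gene (chr12:109948213-109949031), went from 97.7 and 97.8 to 85.1 and 85.0 at 16 h, 56.6 and 54.8 at 24 h and 2.19 and 8.48 at 48 h. In both regions the 16 h libraries were below the 0 h libraries and above the 48 h libraries.

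The region 63.6 kb from Galntl6 (chr8:57732722-57733343) had been the highest of the 5 at 0 h. It was at 99.9 in both 0 h libraries, 95.5 and 87.0 at 8 h, 65.8 and 83.3 at 16 h, 46.2 and 16.2 at 24 h, and 7.54 and 4.94 at 48 h, with replicates far apart at 24 h. The Gm40634 exon region with octamer letters (chr10:43742603-43743196), 158.8 kb from Qrsl1, was at 92.5 and 96.5 at 0 h, 84.7 and 85.6 at 16 h, 45 and 42.8 at 24 h and 1.38 in both 48 h libraries. None of the 5 passed the threshold at 2 h against 0 h (limma adjusted p between 0.420 and 0.993), with differences from -6.68 to 2.25 points. The test cannot show that shifts of this size were absent. In the simulation for 48 h against 0 h it recovered 2% of shifts of 10 points. Fewer regions were shifted there than were called in the data, so that recovery in the data, and at 2 h, may differ. Their peak in every library follows from the rule of the set, so that a loss of the call could not be seen here.

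**Figure D3:**
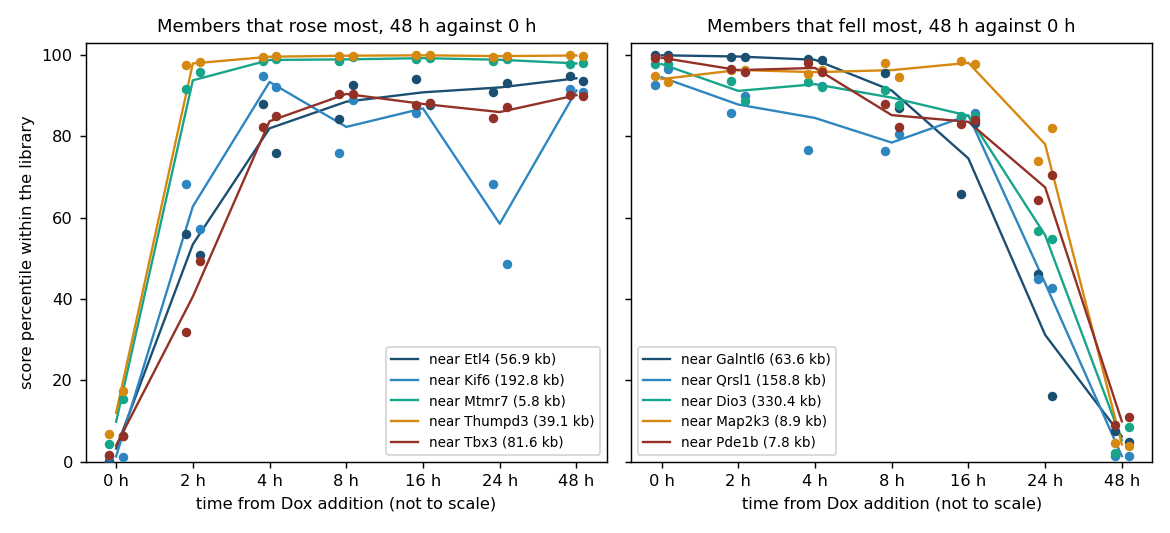
Score percentile within the library (y axis, 0 to 100) by time from Dox addition (x axis, not to scale) for the 5 distal regions that rose most (left) and the 5 that fell most (right) between 0 and 48 h, named by the nearest protein-coding gene. Points are libraries and lines join the means of 2 libraries. The regions were chosen on their 0 h and 48 h values, so that the extremes at these times follow in part from the choice.

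To ask whether regions with a given motif moved together, the median percentile of the regions with the letters minus that of the regions without was taken in each library. For GATA this difference was -3.52 and -3.93 points at 0 h, 4.94 and 4.91 at 2 h, 8.73 and 8.51 at 4 h, 7.72 and 7.71 at 8 h, 8.85 and 8.91 at 16 h, 5.20 and 4.77 at 24 h and 3.88 and 2.88 at 48 h. It was below 0 in both 0 h libraries and above 0 in all 12 others. The difference between time points was larger than that between replicates (permutation F = 376, p = 4e-05, adjusted 8e-05), whereas there was no linear relation with hours (r = 0.0520, permutation p = 0.875; rho = 0.142, permutation p = 0.636; adjusted 0.875 and 0.868). Without the 48 h libraries r was 0.389 (permutation p = 0.202). With permuted GATA letters the difference stayed between -2.45 and 1.95 points in all libraries (permutation F = 3.21, p = 0.0638). That small difference nevertheless followed hours (r = -0.717, permutation p = 0.00337; rho = -0.576, permutation p = 0.0358), which the difference of the GATA letters themselves did not. In the same 3 groups of rising GC content, the GATA difference at 4 h was 9.96, 7.90 and 3.84 points.

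The number of GATA matches was related to the size of the rise. Of 5254 regions with no match, 8.03% rose at 2 h against 0 h, beside 18.5% of 1631 regions with 1 match, 34.9% of 364 with 2 and 53.7% of 82 with 3 or more, where the background over all regions tested was 7.02%. The median difference at 4 h against 0 h was 0.516, 6.17, 14.3 and 23.3 points in the same order, against -0.127 over all regions tested. The 82 regions with 3 or more matches were at a median percentile of 67.0 ± 1.69 (SD, n = 2) at 0 h and 85.3 ± 1.43 by 2 h. They stood at 94.7 ± 0.279 after 4 h, stood at 94.5 ± 0.292 after 16 h, and had come down to 73.8 ± 0.297 by 48 h. Those with none were at 69.3 ± 0.850, 68.0 ± 1.39, 71.0 ± 1.59, 71.8 ± 1.44 and 62.1 ± 0.692 at the same times. By 48 h, 46.3% of the former and 14.5% of the latter were above their 0 h level by the test (background 20.1%). Of all 2077 regions with GATA letters, 540 rose (26.0%) and 619 fell (29.8%, background 19.5%) at 48 h against 0 h. Their median difference was -0.650 points, and 31.2% of all 7331 regions fell. The 1475 regions with permuted GATA letters rose at 2 h in 14.5% and those with GATA letters in 22.7%.

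**Figure D4:**
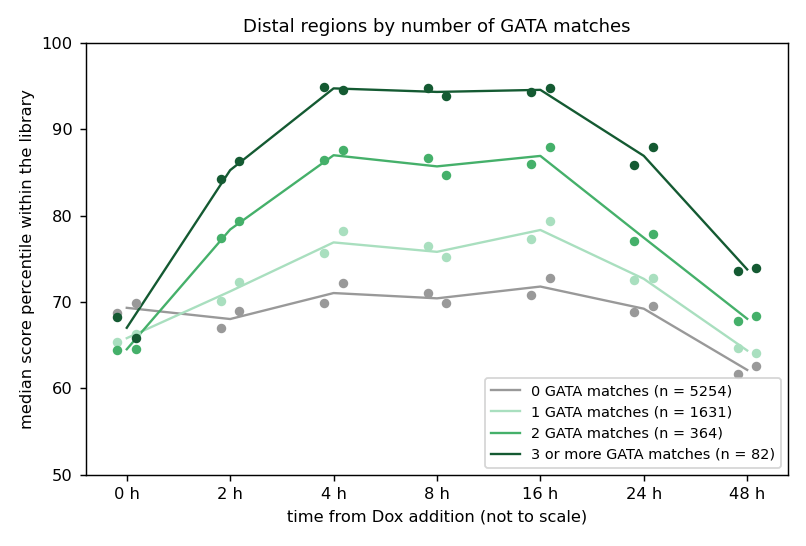
Median score percentile within the library (y axis, shown from 50 to 100) by time from Dox addition (x axis, not to scale) for the distal regions called in all 14 libraries, split by the number of GATA matches in the central 200 bp. Points are libraries and lines join the means of 2 libraries, and the 82 regions with 3 or more matches were at 67.0 at 0 h and 94.7 at 4 h.

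AP-1 letters went with an earlier and shorter rise. The difference between regions with and without them was -1.93 and -2.71 points at 0 h, 12.5 and 11.9 at 2 h, 9.34 and 7.62 at 4 h, 4.46 and 4.53 at 8 h, 2.15 and 3.41 at 16 h, -0.426 and 0.114 at 24 h and -3.71 and -4.06 at 48 h. It was highest in both 2 h libraries, the first after the move to serum and the addition of Dox, which cannot be told apart here. The time points differed (permutation F = 160, p = 1e-05, the smallest that the shuffles can give, adjusted 3e-05). The linear relation passed the threshold (r = -0.616, permutation p = 0.0182, adjusted 0.0319) and the rank relation did not (rho = -0.461, permutation p = 0.0998, adjusted 0.200), and without 48 h r was -0.374 (permutation p = 0.229). At 2 h against 0 h, 173 of 570 regions with AP-1 letters rose (30.4%, background 7.02%) and 13 fell (2.28%, background 5.02%). At 48 h against 2 h, 41 rose (7.19%, background 20.4%) and 289 fell (50.7%, background 19.3%). Of all 7331 regions, 12.2% rose in the first comparison and 31.9% fell in the second. The 155 regions with both AP-1 and GATA letters had a median difference of 12.1 points at 2 h against 0 h, beside 6.84 for the 415 with AP-1 alone, 2.02 for the 1922 with GATA alone and -1.54 for the 4839 with neither.

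The pluripotency motifs went the other way. The octamer difference was 8.22 and 8.15 points at 0 h, 5.98 and 5.25 at 2 h, 3.92 and 3.04 at 4 h, 2.17 and 1.02 at 8 h, 6.83 and 6.33 at 16 h, 2.17 and 2.38 at 24 h and -3.42 and -3.19 at 48 h. Its sign was the opposite at 48 h from that at every earlier time, and it was higher at 16 h than at 8 or 24 h. Both the linear and the rank relation passed the threshold (r = -0.811, permutation p = 0.000900, adjusted 0.00540; rho = -0.726, permutation p = 0.00478, adjusted 0.0143), as did the time points (permutation F = 136, p = 1e-05, adjusted 3e-05). Without 48 h r was -0.427 (permutation p = 0.165). At 48 h against 0 h, 146 of 294 regions with the octamer fell (49.7%, background 19.5%, and 31.2% of all 7331 regions). Of the 294, 41 rose (13.95%, background 20.1%), and the median difference was -13.5 points.

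Regions with the letters of ESRRB and NR5A2, factors of naive pluripotency, also went from a positive to a negative difference. Their difference was 3.61 ± 1.11 points (SD, n = 2) at 0 h, 3.86 ± 0.419 after 2 h, -2.37 ± 0.246 after 8 h, 1.10 ± 1.11 after 16 h, and had reached -2.83 ± 0.158 by 48 h. It fell with time by both measures (r = -0.701, permutation p = 0.00428, adjusted 0.0128; rho = -0.842, permutation p = 0.000310, adjusted 0.00186), and the time points differed (permutation F = 25.9, p = 0.000740, adjusted 0.00111). Within 3 groups of GC content the linear relation was no longer past the threshold (r = -0.242, permutation p = 0.406). Without 48 h r was -0.460 (permutation p = 0.131). At 48 h against 0 h, 70 of 154 fell (45.5%, background 19.5%, and 31.2% of all 7331 regions) and 26 rose (16.9%, background 20.1%). KLF4 letters (GGGTGTGG), those of another naive pluripotency factor, were in 375 regions, of which 162 fell (43.2%) and 59 rose (15.7%), beside the same background. KLF/SP letters were in 679, of which 178 fell (26.2%, below the 31.2% of all 7331 regions) and 135 rose (19.9%, near the background).

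Regions with CTCF letters had a lower rank than the others in all 14 libraries, by least at 48 h. The difference was -9.95 and -11.5 points at 0 h, between -9.69 and -11.7 in the 6 libraries of 2, 4 and 8 h, -16.9 and -16.3 at 16 h, -11.0 and -12.1 at 24 h and -2.55 and -3.60 at 48 h. The median percentile of the CTCF regions themselves was 59.0 and 58.6 at 0 h and 60.5 and 60.2 at 48 h, while that of regions without the letters went from 69.0 and 70.0 to 63.0 and 63.8. The time points differed (permutation F = 34.4, p = 0.00615, adjusted 0.00615). The relation with hours (r = 0.584, permutation p = 0.0266, adjusted 0.0319; rho = 0.0975, permutation p = 0.751, adjusted 0.868) turned without 48 h (r = -0.461, permutation p = 0.115). At 48 h against 0 h, 105 of 639 fell (16.4%) and 81 rose (12.7%), below the background of 19.5% and 20.1% over all regions tested. Among promoter-proximal regions called in every library the CTCF difference was -11.4 ± 1.44 at 0 h and -10.1 ± 0.859 at 48 h (SD, n = 2).

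**Figure D5:**
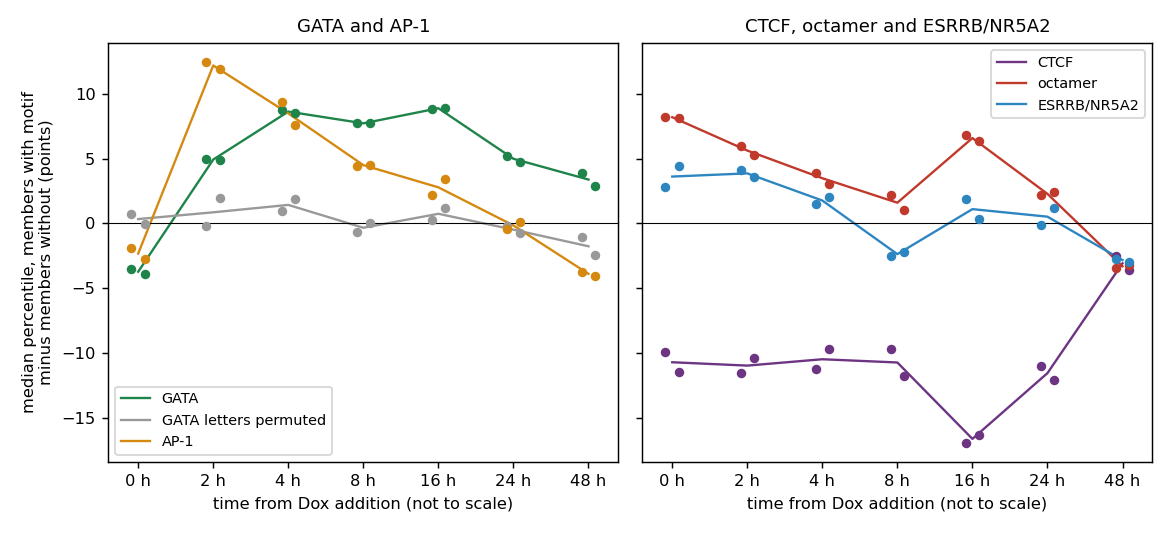
Median percentile of distal regions with a motif minus that of regions without it, in percentile points (y axis), by time from Dox addition (x axis, not to scale). Points are libraries and lines join the means of 2 libraries, and the GATA difference was below 0 at 0 h and above 0 at all later times, while that of its permuted letters stayed between -2.45 and 1.95.

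Regions over snRNA genes ranked higher than those over tRNA genes. The 34 regions over snRNA genes had a median percentile of 95.6 and 96.8 at 0 h, 97.0 and 97.4 at 2 h, 92.5 and 93.5 at 24 h and 88.8 and 89.4 at 48 h, and each spanned 13 points in the median. By 48 h, 17 of them (50.0%, background 19.5%) had fallen and 4 (11.8%, background 20.1%) had risen against 0 h. Of all 7331 regions, 31.2% fell and 17.7% rose. The 88 regions over tRNA genes were at 68.8 and 73.2 at 0 h, 76.7 and 78.8 at 24 h and 66.0 and 69.9 at 48 h, where all 7331 regions were at 68.3 at 0 h and 63.0 at 48 h, and their percentiles spanned 34.1 points in the median. Of them 17 fell (19.3%, background 19.5%) and 9 rose (10.2%, background 20.1%), both below the shares of all 7331 regions. Of the 8 regions nearest to BC107364 on chromosome 3, 6 overlapped tRNA genes and 3 snRNA genes, 7 fell and none rose, and the largest fall was -65.5 points. That group was singled out after its values were seen.

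To relate the regions to the genes of both lineages, regions within 50 kb of their nearest protein-coding TSS were assigned to that gene, and the study's lists of PrE and epiblast (Epi) genes, derived from blastocyst single-cell data, were applied. Of the distal regions so assigned to PrE genes, 267 of 2759 (9.68%) were called in every library, of those assigned to Epi genes 160 of 1332 (12.0%), and of those of all other genes 9.63%. The 267 regions near 181 PrE genes had a median percentile of 67.7 ± 1.19 (SD, n = 2) at 0 h, 78.5 ± 0.928 at 16 h and 69.5 ± 0.671 at 48 h. The 160 near 95 Epi genes were at 69.4 ± 1.12, 78.2 ± 0.887 and 60.9 ± 0.332. The medians of both lists were thus close at 16 h and 48 h was the time at which they were farthest apart, a difference that was not tested. Between 0 and 48 h, 67 of the PrE regions rose (25.1%) and 69 fell (25.8%), with a median difference of 0.596 points. Of the Epi regions, 29 rose (18.1%) and 58 fell (36.3%), with a median of -5.55. Distal regions of other genes called in every library rose in 17.1% and fell in 30.1%, with a median of -2.71. The background over all regions tested, promoter-proximal ones included, was 20.1% up and 19.5% down. GATA letters were in 32.6% of the PrE, 28.8% of the Epi and 27.1% of the other regions.

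Named genes were covered by lists of regulators, taking the distal regions within 100 kb of the start of the gene. Of 12 PrE regulators and receptors, 7 had at least 1 region called in every library, 13 regions in all, of which 4 rose and 4 fell at 48 h against 0 h. Of 10 PrE matrix and secreted genes, 8 had at least 1, and of 18 regions, counted per gene, 2 rose and 3 fell. Col4a1 and Col4a2 start next to each other, so that 1 region near both was counted for each. The pluripotency list, the longest of the lists, had 42 regions at 16 of 19 genes, of which 9 rose and 16 fell. Of 12 signalling genes 10 had 34 regions (9 rose, 9 fell), of 14 imprinted and Hox landmark genes 10 had 15 (1 rose, 6 fell), and of 8 cohesin and CTCF genes 6 had 12 (2 rose, 6 fell). Of all 7331 regions 17.7% rose and 31.2% fell, and of all regions tested 20.1% rose and 19.5% fell. The counts of the lists were not tested against these shares. No distal region called in every library lay within 100 kb of the PrE genes Sox7, Foxa2, Dab2 or Lama1. Promoter-proximal regions were not counted here.

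The PrE loci with most regions differed in direction at 48 h against 0 h. Of 4 regions near Eomes 1 rose and 1 fell, and the 2 near Hnf4a did neither. Of 5 near Apoe 2 fell and none rose. Both regions near Gata4, a GATA factor of the PrE, rose. The one with GATA letters, 67.0 kb from its TSS (chr14:63338305-63339143), was at 38.2 and 52.3 at 0 h, 62.7 and 59.4 at 2 h, 85.5 and 86.0 at 4 h, 92.8 and 91.5 at 8 h, 97.8 and 98.7 at 16 h, 93.8 and 95.5 at 24 h and 97.6 and 96.1 at 48 h. The 2 h libraries were above both 0 h libraries, and the difference at 48 h was 51.6 ± 4.13 points (SE; limma adjusted p = 5.17e-07). Near Sparc, which encodes a secreted matrix protein, a G3bp1 intron region with GATA letters (chr11:55497489-55498176) went from 2.91 and 17.5 at 0 h to 82.5 and 84.8 at 4 h and 67.7 and 72.8 at 48 h. Near Lamc1, a laminin chain gene of the PrE basement membrane, a region with GATA and TEAD letters (chr1:153376302-153377350) was between 96.7 and 99.9 in all 14 libraries.

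At pluripotency genes, regions moved in both directions. All 4 regions within 100 kb of Esrrb fell at 48 h against 0 h. The intron region with AP-1 letters (chr12:86395054-86396060) was at 91.3 and 89.0 at 0 h, between 96.3 and 98.5 from 2 to 16 h, 87.1 and 88.9 at 24 h and 32.3 and 31.1 at 48 h (-58.5 ± 2.29 points, SE; limma adjusted p = 9.04e-10). The intron region with the ESRRB/NR5A2 letters (chr12:86402634-86403629) was at 92.2 and 93.5 at 0 h, 82.0 and 82.4 at 2 h (limma adjusted p = 0.170 against 0 h), 63.4 and 61.8 at 16 h and 68.8 and 73.8 at 48 h (limma adjusted p = 0.00250 against 0 h). Near Nanog, 6 distal regions were called in every library, of which 2 rose and 1 fell. The one that fell (chr6:122662635-122663521, GATA letters, nearest TSS Dppa3) was at 97.5 and 94.6 at 0 h, 68.4 and 70.0 at 2 h, 91.6 and 95.9 at 16 h and 41.0 and 38.0 at 48 h. It was the only one of the 6 with a fall at 2 h past the threshold (-26.8 ± 4.64 points, SE; limma adjusted p = 0.00156). The 2 that rose lay nearest to Slc2a3, a glucose transporter gene, and were at means of 59.7 and 29.5 at 0 h and 88.5 and 72.9 at 48 h.

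At the cohesin genes, the region with CTCF letters 21.9 kb from Rad21, which encodes the cohesin kleisin (chr15:52013062-52014298), lay 396 bp from the TSS of another transcript. It was at 97.3 or above in all 10 libraries up to 16 h, at 88.1 and 83.0 at 24 h and at 38.6 and 42.5 at 48 h. Its fall of 58.0 points (SE 2.13; limma adjusted p = 5.72e-10) was not shared by a second region with CTCF letters nearby, nearest to Aard, at means of 46.9 at 0 h and 42.2 at 48 h (limma adjusted p = 0.665). Near Fos, an AP-1 gene, 3 of 6 regions held CTCF letters. The one at chr12:85485688-85486455 rose from 80.7 and 89.6 to 94.5 and 98.2 at 48 h (limma adjusted p = 0.0139). Near Nodal, the TGF-beta family ligand, 7 distal regions were called in every library. An intron region nearest to Prf1 with GATA letters (chr10:61325800-61326388) went from 89.3 and 86.8 at 0 h to 99.4 in both 2 h libraries and 75.3 and 75.1 at 48 h.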

How the data were processed

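ATAC-seq libraries of 14 samples were analysed from 1 peak list each. The authors processed reads with the ENCODE ATAC-seq pipeline, and per the file names kept peaks of each library by an irreproducible discovery rate of 0.05 on pseudoreplicates, with a blacklist filter. Builds mm10 and GRCm38 are named in the submitters' processing notes, and 0 of 821472 autosomal peaks ran past a GRCm38 chromosome. Each deposited peak carries 1 unnamed score on an unstated scale, used here only as a rank within its library. The lists hold no counts, so the depth of each library is unknown and no interval for it is given, and the number of peaks may follow depth.

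Only autosomes were used. Peaks were merged by overlap of at least 1 bp, and TSSs were those of protein-coding transcripts of GENCODE M21. A region's value was its highest score, as a percentile among regions called in that library. Per-region differences were tested with limma 3.58.1 (R 4.3.3, eBayes with trend, all 14 libraries, no covariate) and Benjamini-Hochberg adjustment over 18395 regions. Simulated data for 48 h against 0 h covered 18395 regions, of which few were shifted. Shifts of 10, 20, 40 and 60 points were recovered in 2, 38, 80 and 94%, with 4 wrong calls. Fewer regions were shifted than were called in the data, so that recovery in the data may differ. Measures per library were tested by 100000 shuffles, adjusted over 6 relations. Motifs, repeats and GC content were read from the RefSeq GRCm38.p6 sequence, and similarity to mitochondrial DNA and genome copies by BLAST 2.17.0. The members and lists were chosen with earlier results of these data known. Regions were named by rule, none on chromosome 18: the highest 4 with and 2 without CTCF letters (1 of the former is not reported here), the 5 that rose and the 5 that fell most with limma adjusted p under 0.05 and no overlap of libraries, the 3 tightest runs, and regions within 100 kb of the 3 genes per list with most. Of 579 PrE and 221 Epi symbols, 570 and 218 matched autosomal genes. Replicate numbers did not pair the libraries (correlation of deviations from -0.142 to 0.139 over 21 pairs of time points). Alternatives covered peak thresholds, overlap, merging, distance, TSS set, rank scale, motif letters and windows, a replicate block and leaving out libraries.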

Additional observations from a re-analysis of the deposited data

How the results depend on the processing

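The set held 7331 regions, 3982 where at least 50% of a region had to be covered in each library, and 7390 to 7846 with a library left out. The counts of regions that rose and fell at 48 h against 0 h, and of those that changed over time, stayed within 1.5 times in all alternatives run, between 901 and 1350, 1880 and 2328, and 4128 and 4692 with a library left out. At 48 h against 2 h those that rose numbered 668 to 1147 and those that fell 1940 to 2390, with 684 and 668 that rose without replicate 1 and 2 of 48 h, against 1073. At 16 h against 0 h, 638 fell with normal scores in place of percentiles, against 401. With the replicate block in limma, 1305 rose, 2269 fell and 4653 changed, and in the permutation tests with a replicate block no call changed (r for the median percentile -0.613, F 48.3).

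The CTCF share was 4.90% in the central 100 bp, 15.3% in 400 bp and 13.9% with looser letters (CCNNNAGNNGGC). The r of the median percentile with time was 0.256 by peak width and 0.329 without 48 h, and -0.689 to -0.402 with 1 library left out, past the threshold except without either 48 h library (-0.402 and -0.433). For CTCF r was -0.461 and F 11.6 (permutation p = 0.0746) without 48 h, and r was 0.358 to 0.676 with 1 library left out, no longer past it without either 48 h library (0.358 and 0.403). For GATA, whose r was not past the threshold, r was -0.0133 on ranks among regions called in every library, -0.629 without 0 h (past the threshold, permutation p = 0.0258), -0.0392 in 400 bp, -0.137 to 0.171 with 1 library left out (-0.124 and -0.137 without either 0 h library) and -0.717 with permuted letters (past the threshold, permutation p = 0.00337), for which F was 3.21. Its F stayed past the threshold, at 230 to 1114 with 1 library left out. For AP-1 r was -0.374 without 48 h, and -0.750 to -0.531 with 1 library left out, past the threshold except without either 48 h library (-0.541 and -0.531). For the octamer r was -0.427 without 48 h and -0.855 to -0.724 with 1 library left out, and F was 3.74 by peak width (permutation p = 0.0569). For ESRRB/NR5A2 r was -0.460 without 48 h, -0.242 within 3 groups of GC content (permutation p = 0.406), both no longer past the threshold, and -0.807 to -0.619 with 1 library left out. With 1 library left out F was 14 to 29.9 for the median percentile, 20.4 to 44.1 for CTCF, 111 to 260.4 for AP-1, 84.0 to 207.5 for the octamer and 18.3 to 33.4 for ESRRB/NR5A2. The cause of these changes was not tested. Leaving out 48 h, GC groups, gene starts only (8405 regions) and the counts without tRNA, snRNA and mitochondria-like regions (1286, 2254 and 4634) were chosen after seeing the data. The unit of the scores and the depth of the libraries are unknown, so that ranks were compared and not levels of accessibility, and each time point rests on 2 libraries.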
